A study of Arabidopsis thaliana with 4 samples.

Results

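The genes studied here were 8 PIF-type genes of Arabidopsis thaliana, chosen by name: PIF1, PIF3, PIF4, PIF5, PIF7, PIF8, HFR1 and PAR1, out of 27444 protein-coding genes on the 5 nuclear chromosomes. They were examined for peaks of the MYC-tagged MYB-like factor RVE5 in chromatin immunoprecipitation followed by sequencing (ChIP-seq). For each gene, every peak was taken that reached into a window made of the annotated gene span and 3000 bp to either side. The ChIP samples were 3 replicates of RVE5-MYC overexpression seedlings aged 14 days, grown at 22 °C in cycles of 16 h of light and 8 h of dark, kept at 29 °C for 12 h and collected at zeitgeber time 12 h. A further sample was 1 input DNA library from the same kind of seedlings, prepared with no antibody, for which no peak list was analysed here. All samples thus carried the tagged transgene and had been warmed, so neither the effect of warmth nor signal of the antibody in plants without the tag was measured. The promoter that drives the transgene, the number of independent lines and whether the replicates came from separate plants are not stated in the labels, so the spread between replicates may be technical. The material was whole seedlings, and a peak carried by few cells cannot be told apart from a weaker one carried by many.

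PIFs (PHYTOCHROME INTERACTING FACTORS) are basic helix-loop-helix (bHLH) transcription factors that bind short DNA elements such as the G-box and promote elongation of the stem. Light-activated phytochromes bind them and cause their inactivation or breakdown. PIF4 is the best known regulator of growth at warm temperature: it raises the expression of auxin synthesis genes, and the hypocotyl of seedlings without it elongates little in warmth. PIF4 transcription is under control of the circadian clock, whose evening complex, built from ELF3, ELF4 and LUX, represses it, more weakly at warm temperature. HFR1 and PAR1 are atypical members of the family that pair with other bHLH proteins and keep them from DNA. RVE5 belongs to the REVEILLE relatives of the clock proteins CCA1 and LHY, and the title of the study places it in the response of the hypocotyl to warmth.

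PIF4 was the only one of the 8 genes with a peak in more than 1 replicate. Peaks lay near PIF4 in replicates 2 and 3, near PIF5 in replicate 2, and near PIF3 and HFR1 in replicate 3. PIF1, PIF7, PIF8 and PAR1 had none in any replicate. In all, 4 of 8 genes had a peak in at least 1 replicate, where 12.8% of all protein-coding genes did. A peak in at least 2 replicates was found at 1 of 8, against a background of 4.65%. None of the 8 had a peak in all 3 replicates, against a background of 1.81%, and so few genes cannot be told apart from that share. By replicate, 0, 2 and 3 of the 8 genes had a peak in replicates 1, 2 and 3, beside backgrounds of 5.59%, 6.61% and 7.02%. With 8 genes, chosen with earlier results of these data known, these counts are a description and were not tested.

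The lists held 676, 827 and 864 peaks in replicates 1, 2 and 3. For each peak the authors gave the pileup, which is the number of overlapping reads or fragments at the summit, and the fold of this pileup over a local background. Library totals are unknown, so depth enters only through the pileups. The background behind each fold could be recovered by taking the fold as pileup over background, with 1 added to both. A Poisson tail of the pileup itself at this background returned the deposited p-value of every peak. The largest gap was 0.00124 on the −log10 scale. The median of this background at a peak was 14.0, 15.0 and 15.4 reads in replicates 1, 2 and 3. Intervals below are exact 95% Poisson intervals of the pileup at a fixed background. They cover counting error only.

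**Figure D1:**
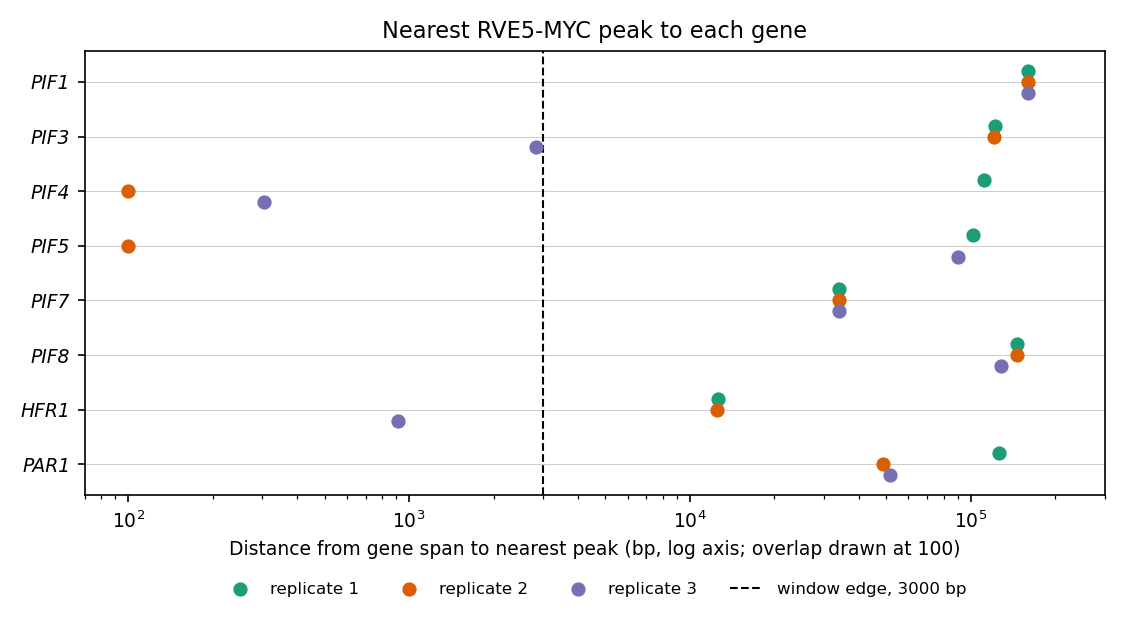
Distance in bp from the span of each gene to the nearest peak of each replicate, on a log axis, with overlap drawn at 100 bp and the 3000 bp window as a dashed line. Inside the window lie replicates 2 and 3 for PIF4 and 1 replicate each for PIF3, PIF5 and HFR1, and no point of replicate 1.

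The main PIF4 (AT2G43010) region lay on chromosome 2 from 17889272 to 17889769, in TAIR10 coordinates. In replicate 2 its peak spanned 17889272 to 17889682, with 47 reads at the summit over a background of 13.2, which is a fold of 3.37 (interval 2.49 to 4.46). In replicate 3 it spanned 17889391 to 17889769, with 53 reads over 13.8, a fold of 3.65 (interval 2.75 to 4.75). The intervals of the 2 replicates overlapped broadly, and the mean fold was 3.51 ± 0.198 (SD, n = 2). The peaks shared 292 bp and their summits lay 9 bp apart, at 17889554 and 17889545. By fold the peak ranked 80 of 827 in replicate 2 and 52 of 864 in replicate 3, within the top 9.67% and 6.02% of these lists. The authors' −log10 q-values were 8.96 and 11.6.

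This region lay outside the gene, beyond its higher-coordinate end, with the peak edges 185 bp and 304 bp from the span in replicates 2 and 3. PIF4 was the nearest protein-coding gene. The next gene on that side, PAO2 (AT2G43020), a polyamine oxidase gene, began 1734 bp beyond the region. The gene table gave no strand, so the region is not called upstream or downstream here.

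A second peak near PIF4 was found in replicate 2 alone, on chromosome 2 from 17886213 to 17886673. It lay inside the gene, with its summit 202 bp from the lower-coordinate end and 3251 bp from the other summit of that replicate. Its pileup was 45 reads over a background of 16.3, a fold of 2.65 (interval 1.95 to 3.53), which ranked 312 of 827. Replicate 2 thus had a peak close to each end of the gene, and replicate 3 only the one beyond the higher-coordinate end.

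**Figure D2:**
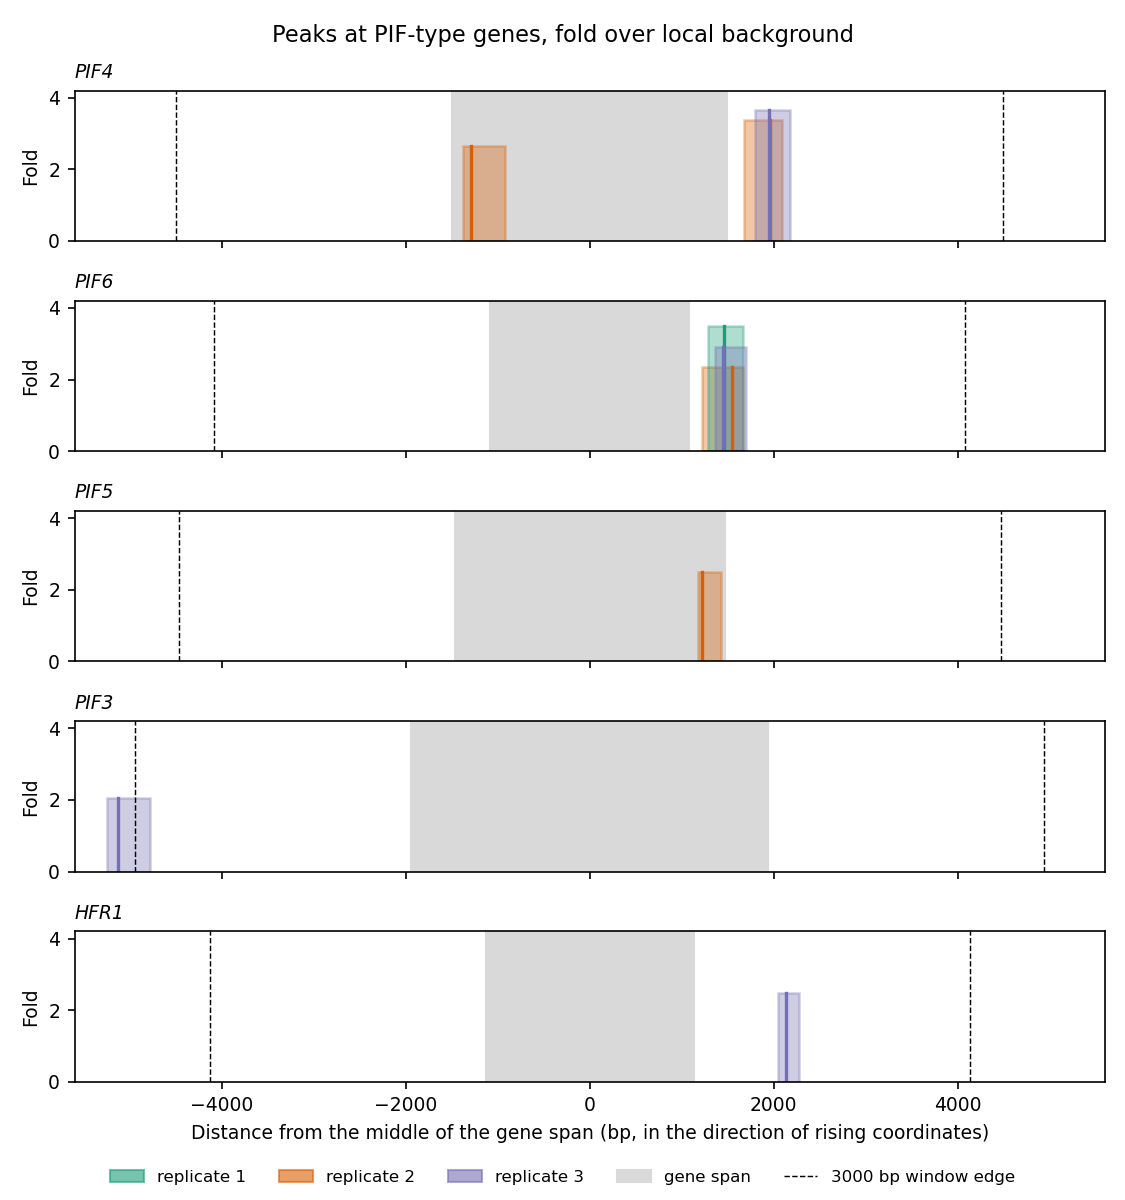
Peaks of each replicate at PIF4, PIF6, PIF5, PIF3 and HFR1, drawn as boxes from peak start to end with the fold over local background as height and a line at the summit. The horizontal axis is the distance in bp from the middle of the gene span (grey). At PIF4 the boxes of replicates 2 and 3 overlap beyond the gene end, at folds of 3.37 and 3.65, and at PIF6 those of all 3 replicates do.

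Replicate 1 had no peak within 111483 bp of PIF4. Regions at least as strong as that of PIF4, which itself sets this threshold, were seldom missing from it. Of the 308 regions with peaks in both replicate 2 and replicate 3, 199 (64.6%) also had one in replicate 1. Among those whose mean fold in replicates 2 and 3 was at least that of PIF4, 57 of 59 had one, and the PIF4 region was 1 of the 2 without. Within 0.25 of the mean fold of PIF4, 32 of 35 regions had a peak in replicate 1, and PIF4 was 1 of the 3 without. Of the regions below the mean fold of PIF4 by at most 0.5, 41 of 49 had one. The same count for the other pairs, at a mean fold of at least that of PIF4, was 63 of 63 for regions of replicates 1 and 3 found in replicate 2, and 56 of 57 for regions of replicates 1 and 2 found in replicate 3. Within 0.25 of the mean fold of PIF4, the counts for these pairs were 29 of 29 and 28 of 34.

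Replicate 1 held calls at lower pileups than those of PIF4 in replicates 2 and 3. Among peaks of replicate 1 with a background of 12 to 15 reads, the lowest pileup that was called was 27. At PIF4 the pileups were 47 and 53 reads in replicates 2 and 3. With library totals unknown, pileups of different replicates are not on a common scale. Peaks weaker than the mean fold of PIF4 made up 90.4% of the list of replicate 1. The pileup and background of replicate 1 at the PIF4 region itself are not in the peak list. The cause of the missing call was not tested.

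**Figure D3:**
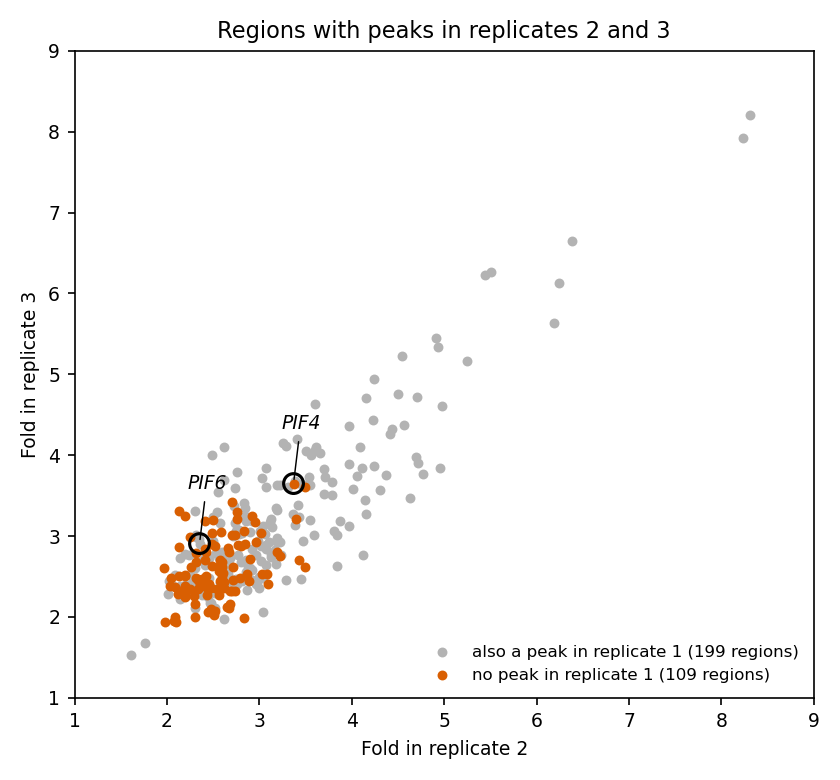
Fold in replicate 3 against fold in replicate 2 for the 308 regions with peaks in both, grey where replicate 1 also had a peak (199) and orange where it had none (109). PIF4 is circled at 3.37 and 3.65, near the upper end of the orange points, and PIF6 at 2.35 and 2.91 among the grey ones.

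Of the 109 regions found in replicates 2 and 3 but not in replicate 1, the PIF4 region was the second by mean rank of the fold, with a mean rank of 66. The one above it, on chromosome 4 from 525230 to 525506 with WRKY22 as the nearest gene, had folds of 3.49 and 3.61 in replicates 2 and 3 and a mean rank of 64. The next below were a region nearest to RABA1c on chromosome 5 from 18558782 to 18559257, with folds of 3.40 and 3.21, and a region nearest to IDD2 on chromosome 3 from 18843028 to 18843371, with 2.92 and 3.24. WRKY22 encodes a WRKY transcription factor, RABA1c a small GTPase of membrane traffic and IDD2 a zinc finger factor. Likeness here means the same replicates and the closest mean rank, over 2 replicates, and the fold of WRKY22 lay within the counting intervals of PIF4 in both.

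PIF5 (AT3G59060), the closest relative of PIF4 and a partner in stem elongation, had 1 peak, in replicate 2, on chromosome 3 from 21830546 to 21830794. It lay inside the gene with its summit 244 bp from the higher-coordinate end. The pileup was 40 reads over 15.4, a fold of 2.49 (interval 1.80 to 3.37), which ranked 443 of 827, below the middle of the list. In replicates 1 and 3 the nearest peaks were 101460 bp and 90345 bp away.

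PIF7 (AT5G61270), which acts in the growth response to shade and to warmth in the day, had no peak within the window. Its nearest peak in every replicate was the region at the clock gene TOC1, at 33954, 33906 and 33898 bp in replicates 1, 2 and 3. The fold of that region was 3.83, 4.23 and 4.44. PIF7 therefore shares its chromosome neighbourhood with a region called in all 3 replicates, but no peak lay within 10 kb of the gene itself.

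PIF3 (AT1G09530), a repressor of greening in dark-grown seedlings, had 1 peak, in replicate 3, on chromosome 1 from 3072462 to 3072933. Its edge lay 2835 bp from the gene, just inside the window, and its summit 3186 bp away, outside it. The nearest protein-coding gene to this peak was AT1G09520. With 37 reads over a background of 17.6 the fold was 2.04 (interval 1.46 to 2.80), and it ranked 819 of 864. This was the weakest peak counted for the 8 genes, and the one nearest to the edge of the window. The closest peaks left out formed 1 region called in all 3 replicates near HFR1, at 12579, 12495 and 12415 bp from that gene in replicates 1, 2 and 3, with folds of 2.75, 2.19 and 2.40 and AT1G02300 as the nearest protein-coding gene.

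PIF1 (AT2G20180), which restrains seed germination in the dark, was the gene farthest from any peak. The nearest region lay 159783, 159743 and 159802 bp away in replicates 1, 2 and 3, with folds of 3.58, 3.51 and 4.06. PIF8 (AT4G00050), also named UNE10, a further phytochrome-binding relative, had its nearest peaks 146123, 146100 and 128453 bp away. Over all protein-coding genes the median distance to the nearest peak was 56.7, 47.1 and 42.7 kb in replicates 1, 2 and 3. PIF1, PIF8 and PAR1 lay beyond that median in each replicate, and PIF7 and HFR1 within it in each. For the nearest peak of any replicate the median was 22.7 kb, and PIF7 lay beyond it.

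The inhibitors gave 1 peak. HFR1 (AT1G02340), which binds PIF4 and PIF5 and limits elongation in shade, had it in replicate 3, on chromosome 1 from 468791 to 469022, with its edge 911 bp beyond the higher-coordinate end of the gene. The nearest protein-coding gene to this peak was AT1G02350. The pileup was 39 reads over 15.1, a fold of 2.49 (interval 1.79 to 3.38), which ranked 436 of 864. PAR1 (AT2G42870), which also restrains PIF4, had no peak in the window. In replicates 2 and 3 its nearest peaks were those of PIF4 itself, on the same chromosome, at 48595 bp and 51773 bp, and in replicate 1 the nearest was 126288 bp away.

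**Figure D4:**
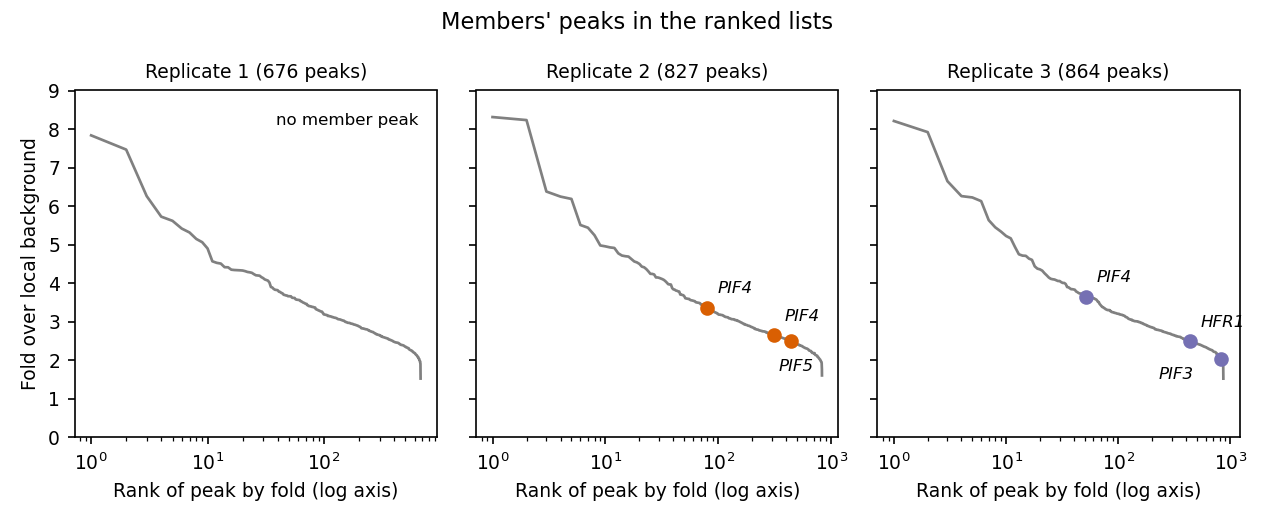
Fold over local background against the rank of each peak by fold (log axis), for the lists of replicates 1, 2 and 3, with the peaks of the 8 genes as points. The main PIF4 peak sits at rank 80 in replicate 2 and rank 52 in replicate 3, the other points at rank 312 or lower in the list, and replicate 1 has none.

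Among 13 further bHLH relatives, 1 had a peak within 3000 bp, and it had one in every replicate. This was PIF6 (AT3G62090), also named PIL2, a phytochrome-binding PIF known for a part in seed dormancy. The 1 of 13 stands beside backgrounds of 12.8% for any replicate and 1.81% for all 3. The PIF6 region lay on chromosome 3 from 22990851 to 22991323, beyond the higher-coordinate end of the gene, with peak edges 201, 142 and 283 bp away in replicates 1, 2 and 3. The nearest annotated gene of any kind was the long non-coding RNA gene AT3G09745, and the nearest protein-coding gene was PIF6. A second relative, SPT (AT4G36930), a regulator of fruit development and seed dormancy, had a region of all 3 replicates just outside the window, at 3380, 3260 and 3302 bp in replicates 1, 2 and 3, with folds of 2.93, 2.46 and 2.17. SPT was its nearest protein-coding gene, and a flank of 5000 bp, tried after the data were seen, gave 2 of 13 relatives.

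The strength of the PIF6 region varied between replicates. The pileup was 50, 43 and 46 reads in replicates 1, 2 and 3, and the background 13.6, 17.7 and 15.2. The fold was 3.49, 2.35 and 2.91, with intervals of 2.61 to 4.58, 1.72 to 3.15 and 2.14 to 3.86 that overlapped one another, and a mean of 2.92 ± 0.571 (SD, n = 3). The ranks by fold were 67 of 676, 560 of 827 and 179 of 864. PIF6 was thus called in every replicate, at a lower mean fold than that of PIF4 over the 2 replicates that called it. The fold of PIF4 in replicate 1 is unknown, so these means rest on different sets of replicates. In replicates 2 and 3, where both were called, PIF4 had the higher fold in each, by 3.37 against 2.35 and 3.65 against 2.91, within overlapping counting intervals.

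Of 35 genes known to act on PIF transcription, protein or activity, 19 had a peak in at least 1 replicate, 9 (25.7%) in at least 2 and 7 in all 3, beside backgrounds of 12.8%, 4.65% and 1.81%. The list was drawn up with earlier results of these data known and includes clock genes already seen to have peaks, so its count is no independent evidence. The 9 were PHYB and the clock genes ELF3, ELF4, LUX, NOX, TOC1, PRR5, PRR7 and GI. ELF3, ELF4 and LUX, the parts of the evening complex, had a peak within the window in every replicate. At LUX the peaks of replicates 1 and 3 overlapped the gene span, and that of replicate 2 lay 5 bp from it. By peak centre, AT3G46630 was the nearest protein-coding gene to the LUX peaks in all 3. The stronger of 2 regions at ELF3 had folds of 3.40, 3.03 and 3.72 in replicates 1, 2 and 3. At ELF4 they were 2.99, 4.12 and 2.77, and at LUX 3.66, 2.84 and 3.35. These values lie around those of PIF4 in replicates 2 and 3.

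The other clock genes of the 9 spanned a wider range of folds. GI had 7.84, 8.31 and 8.21 in replicates 1, 2 and 3, PRR7 had 4.57, 6.25 and 6.13, TOC1 had 3.83, 4.23 and 4.44, and the stronger of 2 regions at PRR5 had 4.90, 3.97 and 3.90. In replicates 2 and 3 the folds at GI, PRR7, TOC1 and PRR5 were above those at PIF4. By contrast, NOX, a relative of LUX, had peaks of 2.16 in replicate 2 and 2.58 in replicate 3, in separate regions. PHYB, the photoreceptor that inactivates PIF4 and also senses temperature, was called in replicates 1 and 3 with folds of 2.93 and 3.11, and not in replicate 2. PHYB and PIF4 were thus both called in 2 replicates, but missing from different ones.

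A further list held 21 genes known as targets of PIFs, mainly in elongation growth but with the flowering gene FT among them. None had a peak in 2 or more replicates, against a background of 4.65%. So few genes cannot be told apart from that share. A peak in 1 replicate was found at 3 of 21, against a background of 8.12%. These were ATHB2, a homeobox gene of the shade response, with a fold of 2.84 in replicate 3, LNG1, a regulator of cell elongation, with 2.48 in replicate 1, and CKX5, a cytokinin oxidase gene, with 2.47 in replicate 3, all named after their values were seen. The auxin synthesis genes YUC8, TAA1 and CYP79B2, the IAA genes and SAUR19 to SAUR24 were without a peak in the window in every replicate. PIF4 is known to drive growth in warmth through these genes. They belong to the 18 of 21 targets without any peak, beside 23941 of all 27444 protein-coding genes. SAUR19 to SAUR24 lie close together on chromosome 5 and are not separate observations.

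**Figure D5:**
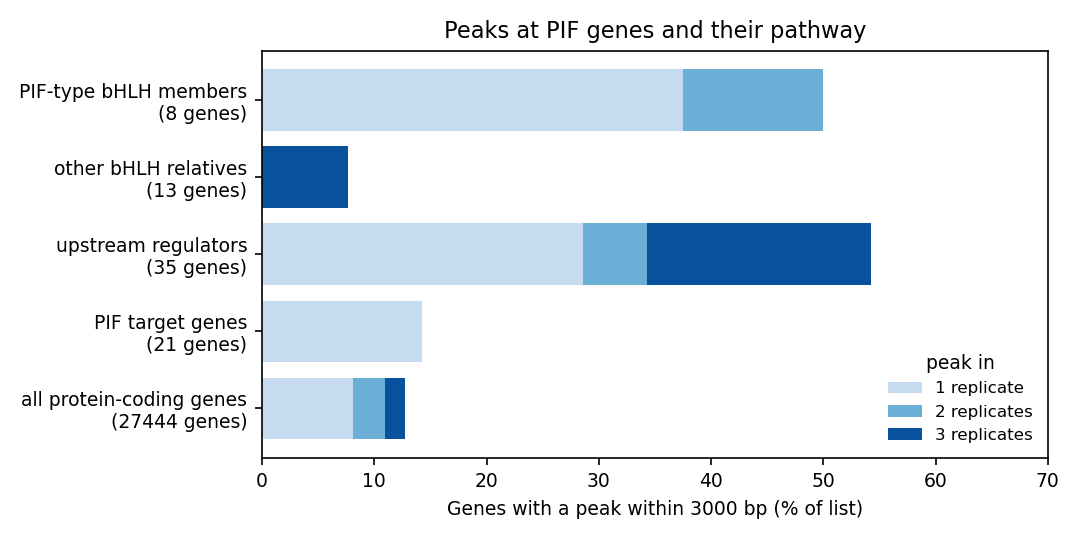
Share of genes with a peak within 3000 bp, in percent of each list, split by the number of replicates with a peak. Peaks in at least 2 replicates were found at 1 of 8 PIF-type genes, 1 of 13 relatives, 9 of 35 upstream regulators and 0 of 21 target genes, beside 4.65% of all protein-coding genes.

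The call at PIF4 rests on 2 libraries. Without replicate 2 or without replicate 3, none of the 8 genes had a peak in 2 replicates, and without replicate 1 PIF4 had one in both that remain. It also rests on the space beside the gene: with spans taken without flank, 0 of 8 genes had peaks in 2 replicates (background 1.18%) and 2 of 8 in any (background 3.77%). A flank of 1000 bp gave 1 of 8, PIF4, for at least 2 replicates (background 2.54%) and 3 of 8 for any (background 7.6%). Asking that the peaks of 2 replicates share 1 region, a choice made after the data were seen, again gave 1 of 8, PIF4 (background 4.15%).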

How the data were processed

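Peak lists of 3 RVE5-MYC ChIP replicates were used. The submitters' processing notes name build TAIR10 and CASAVA 1.4. The aligner, peak caller, threshold and use of the input were not given in the sources used here. In the deposited lists, the signal is the pileup at the summit, the fold is a ratio to a local background, and p-values and q-values are given as −log10, per the file headers. These are the authors' values for each peak in its own list. They describe and rank peaks and measure no occupancy on a common scale.

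Genes came from a RefSeq table on assembly TAIR10.1, in which all 8 identifiers and the 69 of the other lists were found. Gene positions of TAIR10.1 were used with peak positions of TAIR10, and only distances are printed. Peaks sharing at least 1 bp were merged into regions. The nearest gene is that closest to the centre of a peak or region. Computation used Python 3.11.15, pandas 2.3.3 and SciPy 1.17.1, and the overlap counts were tested on simulated data. No sequence was used here, so the planned motif counts and protein descriptions were not made.

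The members and lists were chosen with earlier results of these data known. Genes named are the 8 genes, list genes with a peak in at least 2 replicates, and the regions of the same replicates nearest to PIF4 in mean rank, 2 above and 2 below, of which only 1 existed above. Further list genes are named for a count of 5 or fewer, for a peak just outside the window, or as examples without a peak, chosen after their values were seen. Alternatives changed the flank, the overlap rule, the peaks kept and the replicates.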

Additional observations from a re-analysis of the deposited data

How the results depend on the processing

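Of 67 alternatives, 40 gave the same value, and 54, these included, stayed within 1.5 times the count or within 1 SD. The other 13 moved further. Part of this tally was fixed beforehand, so it does not measure robustness. Settings that only take peaks away cannot raise a count of 0, such as that of the target genes. When either of the 2 replicates behind the mean fold of PIF4 is left out, the value stays within 1 SD by construction. Leaving out replicate 1, which has no peak there, cannot change it. The 4 genes with a peak in any replicate became 2 without flank, 2 when only the 50% of each list with the best p-values was kept, 1 with a fold of at least 3 (PIF4), and 2 where a peak counts for its nearest protein-coding gene only (PIF4 and PIF5), a choice made after the data were seen. It became 3 with a flank of 1000 bp or with the summit in the window. Leaving out 1 replicate gave 2 to 4. For peaks in at least 2 replicates the count of 1 became 0 without flank and ranged from 0 to 1 over the left-out replicates. For peaks in every replicate it was 0 to 1. The bHLH relatives fell from 1 to 0 without flank and with a fold of at least 3, and rose to 2 with a flank of 5000 bp, also chosen after the data were seen. Upstream regulators, 9 in at least 2 replicates, ranged from 6, without flank or with a fold of at least 3, to 10 with a flank of 5000 bp. The median rank of the PIF4 region was 66 by fold and 95.5 by p-value. Its mean fold was 3.37 to 3.65 over the left-out replicates. The share of all protein-coding genes was computed for a flank of 1000 bp, without flank and for the shared region, as given above. For the other settings it was not computed, so their counts stand without a background and describe the setting only. Beyond what each setting removes, adds or reassigns, the cause was not tested. No paired analysis was possible because the input had no peak list. The median pileup at a summit was 38 to 40 reads, and library totals and the threshold are unknown. A gene without a peak is thus one where none was called, and absent binding cannot be told apart from missed binding.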
